A study of Mus musculus with 23 samples.

Results

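Expression of 39 imprinted genes was examined in RNA-seq libraries of mouse ESCs in which the DNA-binding domain of KDM2B can be deleted. The genes were listed by name as known mouse imprinted genes, by a rule that uses no measured value although earlier results of these data were known when the list was made, and all 39 were found among the 23369 gene names in the expression tables. KDM2B is a CpG island-binding protein that recruits a variant Polycomb repressive complex 1 (PRC1). Tamoxifen treatment of these cells, which carry an inducible Cre, removes the floxed exon encoding most of its ZF-CxxC domain. All 6 libraries carry the same cell line label, MS12 KDM2Bfl/fl ES cells, so the untreated controls had the same floxed alleles and Cre as the treated cells. Per the study's methods, the floxed allele was made in MS12 ESCs, and the ES cell lines with ERT2Cre at the Rosa26 locus were derived later by crossing mice that carried it. The 3 untreated libraries received no drug, and the 3 tamoxifen libraries received 800 nM 4-hydroxytamoxifen for 72 hr per the sample labels (the design text of the series writes the dose as 800 µM). No library of drug-treated cells without floxed alleles was used here, so an effect of the drug or of Cre and an effect of the deletion cannot be told apart. The cells were grown on mouse embryonic fibroblast feeders and were left to settle overnight without feeders before use.

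The names of the deposited tables give the opposite treatment to the sample labels for all 6 libraries. Groups here follow the sample labels, and every fold change below would change sign if the table names were right. The whole-gene level of Kdm2b could not settle this, because it sums all exons and does not resolve the floxed one. Its log2 fold change in tamoxifen against untreated was -0.19, with limma adjusted p = 0.999 without and 0.306 with replicate number as a block. For genes that lost RING1B, a catalytic PRC1 subunit, the paper reports only a very modest average rise after tamoxifen. Most markers of other lineages that passed the test with that block, given below, were lower under the sample labels. Whether those markers lost RING1B was not examined, so this was not used to check the labels. All 10 ES cell markers were at or above 1 FPKM in every library. The 14 fibroblast markers summed to 50.7, 123 and 99.7 FPKM in untreated replicates 1 to 3, and to 53.9, 116 and 92.0 FPKM in the tamoxifen replicates, so replicate number 1 was low in both groups.

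Imprinted genes are transcribed mainly or entirely from the allele inherited from a single parent. Most lie in clusters in which a differentially methylated CpG-rich region, marked in the egg or the sperm, directs the allelic expression of protein-coding genes and long non-coding RNAs. Many paternally expressed members promote fetal or placental growth and many maternally expressed members restrain it. The marks withstand the global demethylation of the early embryo through KRAB zinc finger proteins and maintenance methylation, and they can be lost in cultured ESCs. FPKM does not separate the alleles, so each value below is the sum of both, and in bulk RNA fewer cells of a type and less RNA per cell cannot be told apart.

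Promoter sequences are shown because the KDM2B domain removed here binds unmethylated CpG. They are given for 5 of the members called with the replicate block described below. Each sequence is the 250 bases before a RefSeq transcription start on the gene's own strand (RefSeq table, build GRCm38.p6), 5′ to 3′, with CG dinucleotides in capitals. For a gene with several starts, the start whose window (250 bases before to 50 after) held most CG is shown. Over all windows of the gene, CG ran from 9 to 45 for Grb10, from 1 to 13 for Meg3 and from 2 to 7 for Snrpn. Grb10 lies at chr11:12037421-12037670 on the minus strand, Plagl1 at chr10:13090582-13090831 on the plus strand, Nnat at chr2:157559828-157560077 on the plus strand, Meg3 at chr12:109540746-109540995 on the plus strand and Snrpn at chr7:60005200-60005449 on the minus strand.
Grb10: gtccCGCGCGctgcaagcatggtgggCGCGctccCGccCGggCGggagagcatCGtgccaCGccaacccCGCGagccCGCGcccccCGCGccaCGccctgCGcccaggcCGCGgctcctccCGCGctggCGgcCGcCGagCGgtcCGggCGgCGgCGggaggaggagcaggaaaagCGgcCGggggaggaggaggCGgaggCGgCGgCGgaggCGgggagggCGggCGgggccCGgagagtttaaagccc
Plagl1: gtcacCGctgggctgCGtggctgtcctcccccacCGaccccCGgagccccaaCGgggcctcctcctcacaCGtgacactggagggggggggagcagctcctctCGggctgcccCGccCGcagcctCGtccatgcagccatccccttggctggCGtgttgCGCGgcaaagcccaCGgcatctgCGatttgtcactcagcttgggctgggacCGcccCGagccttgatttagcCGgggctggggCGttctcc
Nnat: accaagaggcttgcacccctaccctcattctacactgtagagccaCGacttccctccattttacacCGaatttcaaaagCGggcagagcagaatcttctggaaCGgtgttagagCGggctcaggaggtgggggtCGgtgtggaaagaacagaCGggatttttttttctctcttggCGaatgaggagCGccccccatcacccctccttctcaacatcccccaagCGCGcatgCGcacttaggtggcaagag
Meg3: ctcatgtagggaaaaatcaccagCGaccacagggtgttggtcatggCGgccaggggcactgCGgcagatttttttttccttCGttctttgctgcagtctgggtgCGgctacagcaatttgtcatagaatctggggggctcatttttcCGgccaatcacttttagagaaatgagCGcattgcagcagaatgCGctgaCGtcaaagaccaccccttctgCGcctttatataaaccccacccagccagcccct
Snrpn: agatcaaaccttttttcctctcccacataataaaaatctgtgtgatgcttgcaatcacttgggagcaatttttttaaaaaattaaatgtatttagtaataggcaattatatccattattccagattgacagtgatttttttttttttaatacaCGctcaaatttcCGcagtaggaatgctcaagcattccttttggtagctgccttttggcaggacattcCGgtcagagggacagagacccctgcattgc
The 5 windows held 40, 19, 12, 10 and 3 CG dinucleotides, in the order Grb10, Plagl1, Nnat, Meg3 and Snrpn. The other called members with a matched entry, all lower in tamoxifen, held 29 (Gnas), 26 (Zdbf2), 22 (Igf2), 10 (Mirg), 8 (Dlk1) and 0 (Rian). The 5 shown therefore do not stand for all members that were called. A RefSeq promoter entry (250 bases before to 50 after the start) was matched for 31 of the 39 members. Entries were not matched for Peg13, Impact, Peg10, Sgce, Cdkn1c, H19, Trappc9 and Nespas. Taking the window with most CG for each gene, the 31 members had a median of 17 CG dinucleotides, from 0 to 45, beside a median of 8, from 0 to 67, over 27025 genes. Within the members, the median was 20.5 for the 10 lower in tamoxifen with the replicate block described below, 16 for the 16 that were tested and not called, and 13 for the 4 that were not tested. The first 2 sets ranged widely, from 0 to 45 and from 2 to 34. The letters TGCCGC, which form the core of the methylated recognition motif of the imprint-protecting factor ZFP57, were present on either strand in 12 of the 47 windows of the members, or 25.5%, against 11.6% of all 32851 windows. These letters themselves hold a CG, and the 47 windows had a median of 14 CG against 7 over all windows. The shares were not matched for CG content, and some windows of a gene overlap, so they do not show an excess of the motif beyond CG content.

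The members spanned a wide range of levels in ESCs. FPKM is scaled to transcript length, so levels can be set side by side between genes. By mean FPKM over the 6 libraries, 10 members exceeded 50, 11 lay between 10 and 50, 12 between 1 and 10, 1 between 0.5 and 1, and 4 were above 0 but no higher than 0.5. Nespas, a paternally expressed antisense RNA of the Gnas cluster, was listed at 0 in every library. The 5 members below the expression filter (at least 0.5 FPKM in at least 3 of 6 libraries) were Nespas, Kcnq1ot1, Airn, Usp29 and Zim1, and the other 34 were tested. Except for Zim1 and Usp29, these are long non-coding or antisense RNAs that lie within or across a host gene. Per the study's methods the libraries were directional and made from polyA+ RNA, so low values here need not mean low transcription. The strand setting of the counting is not given in the sources used here. Reads of Airn and Igf2r, of Nespas and Gnas, and of Kcnq1ot1 and Kcnq1 therefore cannot be told apart where they overlap.

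**Figure D1:**
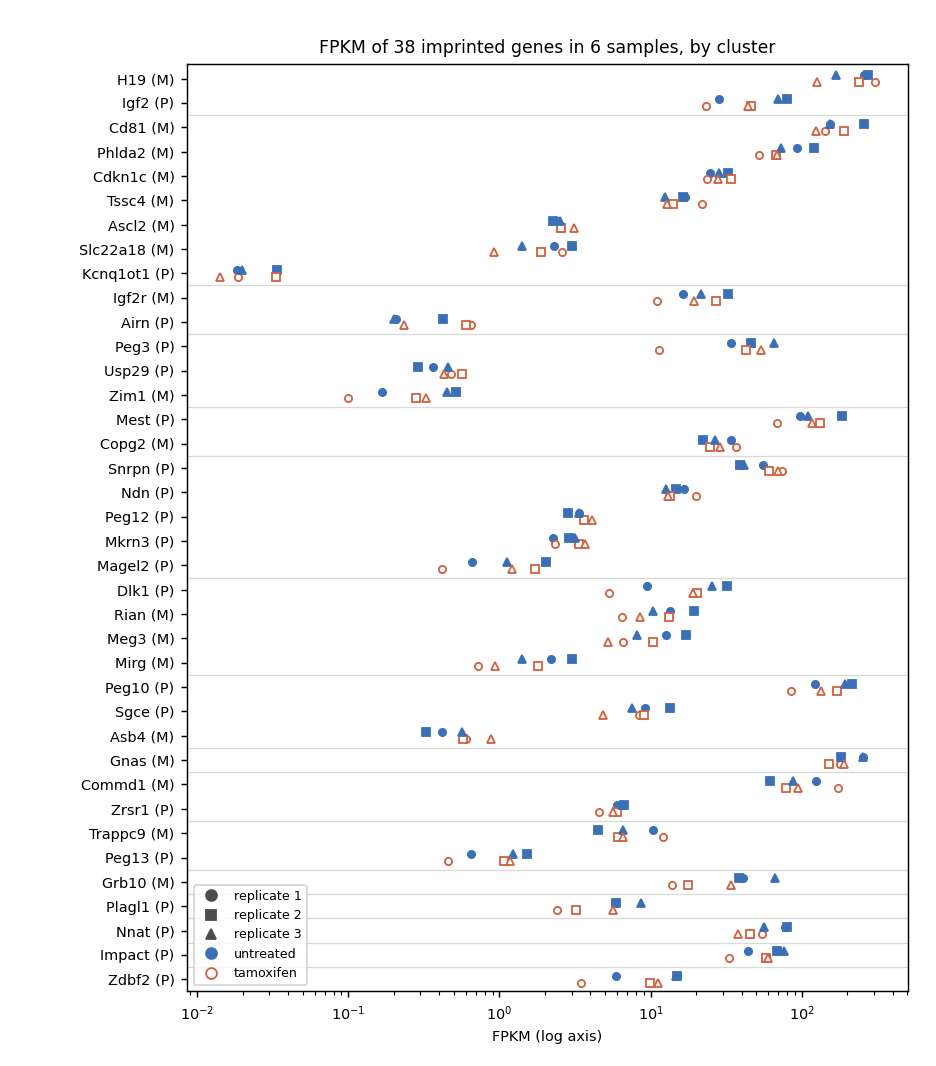
FPKM of each imprinted gene on a log axis in the 3 untreated and 3 tamoxifen libraries, with genes grouped by imprinted cluster. The allele known to be expressed in mouse, not measured here, is given as M (maternal) or P (paternal). Nespas, at 0 in every library, is not drawn. H19, Gnas, Peg10, Cd81, Mest, Commd1 and Phlda2 lie above 50 FPKM in every library, and the points of a gene often spread as far within a group as between the groups.

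The main comparison asked which imprinted genes differed between tamoxifen treated and untreated cells. Without regard to replicate number, none of the 34 tested members passed the limma test at an adjusted p of 0.05 in either direction, against 4 of 12997 genes tested (0.0308%). At an unadjusted p under 0.05, 1 member was higher and 4 were lower, while 4.79% of all genes passed in either direction. Same-numbered libraries deviated together from their group means, with correlations over 12997 genes of 0.544, 0.605 and 0.506 for numbers 1, 2 and 3. The labels give only the number and do not say what same-numbered libraries shared, such as a culture or a preparation. The numbers were treated as pairs because of these correlations. The comparison was repeated with a term for replicate number, called the replicate block below.

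In that fit 11 of the 34 members fell and 1 rose in tamoxifen treated cells, at a background of 6.06% of all genes lower and 4.33% higher. The 11 that fell were Grb10, Plagl1, Nnat, Meg3, Rian, Mirg, Dlk1, Zdbf2, Igf2, Peg10 and Gnas, and the 1 that rose was Snrpn. The median log2 fold change was -0.33 over the 34 members and -0.02 over all genes. Within replicate numbers 1, 2 and 3 the median difference of the members was -0.40, -0.26 and -0.23. In all 3 numbers 19 members were lower (28.2% of all genes were) and 8 were higher (24.8% of all genes). Members were also sorted by the allele known to be expressed in mouse, which was not measured in these cells. Of 17 listed as paternally expressed 6 were lower and 1 higher, and of 17 listed as maternally expressed 5 were lower and none higher. The maternal set includes Grb10, Gnas and Trappc9, for which that label holds in most tissues, some tissues and brain. Meg3, Rian and Mirg, among the maternal members that were lower, share a cluster. With the block and TPM scaling, which divides each library by its summed FPKM, 35 members were tested. The calls among them were reduced to Grb10 and Plagl1 lower and Snrpn higher. Of the 13406 genes then tested, 450 were higher (3.36%) and 349 lower (2.60%), in place of 563 and 787. The loci under 300 bp take up to 67.7% of the summed FPKM of a library. When they were left out before TPM scaling, 15 of 37 tested members were lower and 1 was higher. Of the 14267 genes then tested, 418 were higher (2.93%) and 1150 lower (8.06%). The median log2 fold change of all genes moved to -0.11 in that setting. Leaving out the pair of replicate number 2 reduced the calls to 1 member, Grb10, when 0.529% of all genes were called lower and 0.361% higher.

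**Figure D2:**
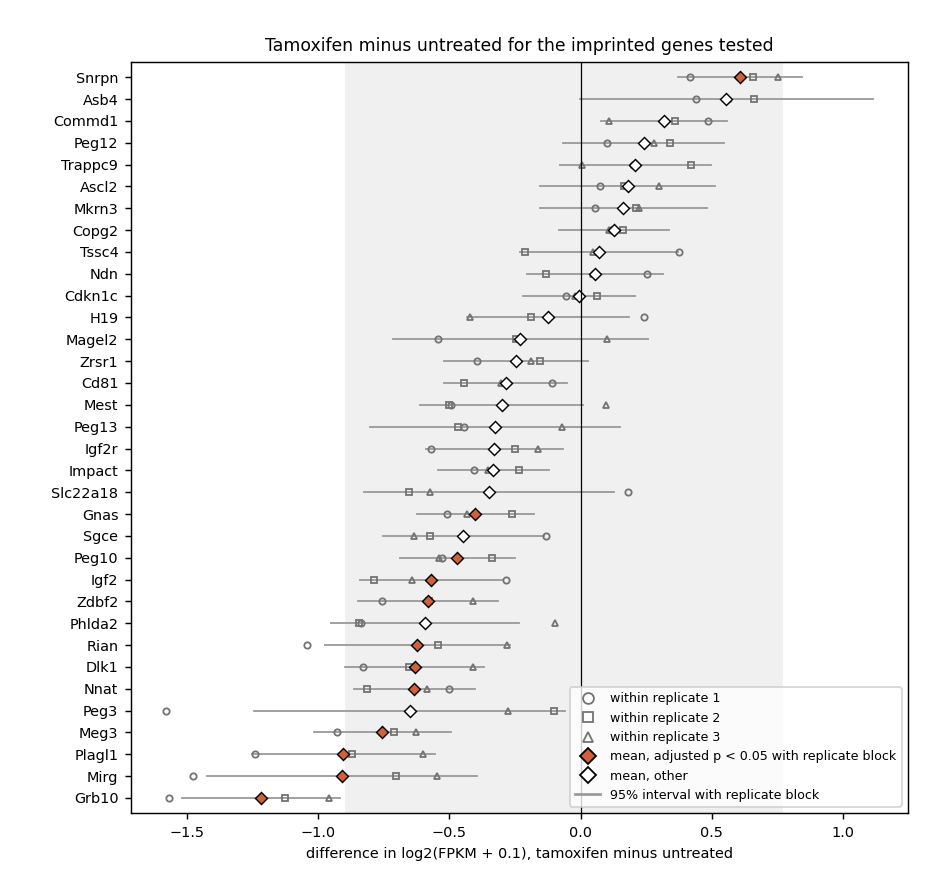
Difference in log2(FPKM + 0.1), tamoxifen minus untreated, for the 34 tested imprinted genes, with the mean and its 95% interval from the fit with the replicate block and the 3 differences within replicate numbers as points. The shaded band holds the middle 95% of all genes tested (-0.89 to 0.77). Grb10 has the lowest mean difference (-1.22) and Snrpn the highest (0.61).

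The largest decrease was at Grb10, which encodes an adaptor protein that dampens insulin and IGF receptor signalling and is maternally expressed in most tissues. Grb10 (mm9 chr11, 11830501 to 11937423 in the tables) was at 41.0, 38.4 and 66.2 FPKM in untreated replicates 1 to 3 and at 13.8, 17.6 and 34.0 FPKM in the tamoxifen replicates. Every tamoxifen library lay below every untreated library. The group levels were 48.5 ± 15.3 and 21.8 ± 10.8 FPKM (SD, n = 3 each). The log2 fold change was -1.22, with SE 0.129 and limma adjusted p = 0.00400 with the block, and SE 0.364 and adjusted p = 0.628 without it. The differences within replicate numbers were -1.57, -1.13 and -0.96, and Grb10 was called lower under each scaling tried with the block.

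Plagl1, a paternally expressed zinc finger transcription factor (mm9 chr10, 12810593 to 12851501), was at 5.78, 5.91 and 8.60 FPKM in untreated and 2.39, 3.19 and 5.64 FPKM in tamoxifen treated cells. The groups did not overlap, but untreated replicate 1 and tamoxifen replicate 3 lay close together. Its log2 fold change was -0.90, with limma adjusted p = 0.0137 with the block (SE 0.150) and 0.860 without it (SE 0.344). Nnat, a paternally expressed gene for a small membrane proteolipid that lies within an intron of Blcap, was at 77.2, 79.9 and 56.4 FPKM untreated and 54.5, 45.5 and 37.6 FPKM with tamoxifen. Here too the groups did not overlap, the nearest values being untreated replicate 3 and tamoxifen replicate 1. The log2 fold change of Nnat was -0.63, with limma adjusted p = 0.0119 with the block and 0.860 without it. Values of untreated and tamoxifen libraries did not overlap for 5 members that were lower, Grb10, Nnat, Phlda2, Plagl1 and Zrsr1 (5.4% of all genes), and for 4 that were higher, Snrpn, Ascl2, Asb4 and Peg12 (3.09% of all genes).

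All 4 listed members of the Dlk1-Dio3 cluster fell with the block, the 3 maternally expressed non-coding RNAs as well as the paternally expressed Dlk1. Dio3, read among the further imprinted genes below, was not called. Its log2 fold change was -0.19, with limma adjusted p = 0.692 with the block, higher in 1 pair and lower in 2. Calls within a cluster were counted singly, and whether they are independent was not tested. Dlk1 and Meg3 were also called with the block and quantile normalization, but Rian and Mirg were not, with limma adjusted p = 0.0517 and 0.0535. Meg3, a long non-coding RNA of the cluster (mm9 chr12, 110779205 to 110809939), was at 12.6, 17.0 and 8.10 FPKM in untreated replicates 1 to 3 and 6.56, 10.4 and 5.22 FPKM with tamoxifen. Rian, which hosts C/D box snoRNAs, was at 13.4, 19.3 and 10.4 FPKM and then 6.47, 13.2 and 8.53 FPKM. Mirg, a microRNA host transcript, was at 2.18, 3.00 and 1.41 FPKM and then 0.720, 1.80 and 0.934 FPKM. For each of the 3 RNAs every pair was lower with tamoxifen while the groups overlapped, and in every group replicate 2 was highest. The rows for microRNAs and snoRNAs within them were listed at 0. The libraries were made from polyA+ RNA, so these zeros were not read as absence of the small RNAs. The log2 fold change was -0.76 for Meg3, -0.62 for Rian and -0.91 for Mirg, with limma adjusted p = 0.0105, 0.0426 and 0.0420 with the block and 0.999 for each without it. Dlk1, a transmembrane protein with EGF-like repeats of the Notch ligand type, was at 9.47, 32.0 and 25.3 FPKM untreated and 5.28, 20.3 and 19.04 FPKM with tamoxifen. Replicate number 1 was lowest in both groups, further below its group than the tamoxifen pairs were apart. The log2 fold change of Dlk1 was -0.63, with limma adjusted p = 0.0174 with the block and 0.999 without it. The ratio of Dlk1 to Meg3 was 0.753, 1.88 and 3.12 in untreated replicates 1 to 3 and 0.805, 1.96 and 3.65 in tamoxifen replicates, so it varied by number more than by treatment.

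In the Igf2-H19 cluster the paternally expressed growth factor gene and the maternally expressed non-coding RNA differed in their pairs. Igf2 (mm9 chr7, 149836672 to 149846940) was at 28.4, 79.5 and 69.1 FPKM untreated and 23.3, 46.0 and 44.3 FPKM with tamoxifen. Each pair was lower, and the log2 fold change was -0.57 with limma adjusted p = 0.0252 with the block and 0.999 without it. H19 was at 259, 272 and 169 FPKM untreated and 306, 239 and 126 FPKM with tamoxifen, higher in 1 pair and lower in the other 2. Its log2 fold change was -0.12, with a 95% interval of -0.43 to 0.19 in the fit with the block. The ratio of H19 to Igf2 was 9.12, 3.43 and 2.44 in untreated replicates and 13.1, 5.19 and 2.84 in tamoxifen replicates, which is 1.44, 1.51 and 1.16 times the untreated ratio within each number. Igf2r, the maternally expressed receptor that clears IGF2, was at 16.5, 32.3 and 21.7 FPKM untreated and 11.1, 27.1 and 19.3 FPKM with tamoxifen, lower in each pair without passing the test. Its antisense RNA Airn was at 0.199 to 0.422 FPKM untreated and 0.234 to 0.649 FPKM with tamoxifen, and was too low to test.

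**Figure D3:**
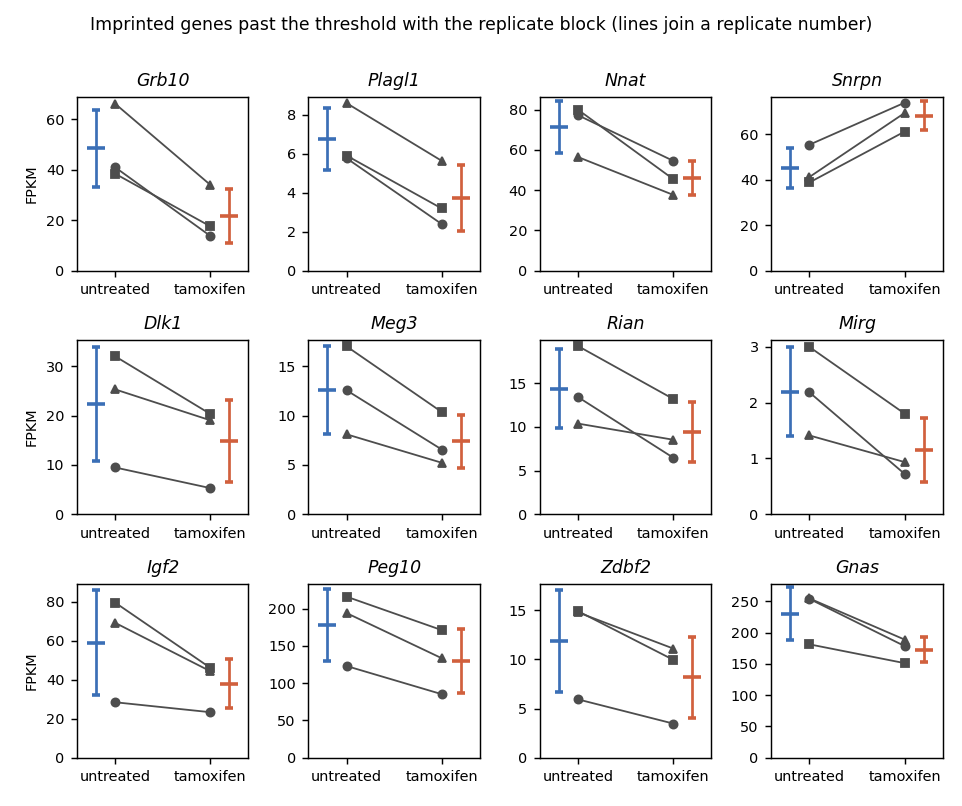
FPKM (linear axes from 0) in untreated and tamoxifen libraries for the 12 imprinted genes called with the replicate block, with a line joining libraries of the same replicate number (circle 1, square 2, triangle 3) and bars beside them for the group mean ± SD (n = 3). Lines run downward for the 11 genes that fell and upward for Snrpn, and number 1 lies lowest for Dlk1, Igf2 and Zdbf2.

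Snrpn, the paternally expressed gene for the spliceosomal SmN protein, was at 55.4, 38.8 and 41.2 FPKM in untreated and 73.9, 61.2 and 69.3 FPKM in tamoxifen treated cells. The groups did not overlap, and the levels were 45.1 ± 8.96 and 68.1 ± 6.44 FPKM (SD, n = 3 each). Its log2 fold change was 0.61, with SE 0.101 and limma adjusted p = 0.0137 with the block, and SE 0.224 and adjusted p = 0.832 without it. The row covers a long locus (mm9 chr7, 67127387 to 67285105) and the overlapping Snurf row was listed at 0. How reads shared by both were assigned is not given in the sources used here. The other members of its cluster did not pass. The MAGE family genes Ndn and Magel2 ranged from 12.6 to 19.8 and from 0.418 to 2.04 FPKM over the 6 libraries, the ubiquitin ligase gene Mkrn3 from 2.25 to 3.71 FPKM and Peg12 from 2.84 to 4.12 FPKM. Snrpn was 3.33, 2.63 and 3.26 times the level of Ndn in untreated replicates and 3.72, 4.54 and 5.31 times in tamoxifen replicates.

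Zdbf2, Peg10 and Gnas also fell with the block. Zdbf2, a paternally expressed zinc finger gene, was at 5.93, 14.9 and 14.8 FPKM untreated and 3.47, 9.96 and 11.1 FPKM with tamoxifen. Peg10, a paternally expressed gene derived from a retrotransposon and required for the placenta, was at 123, 216 and 194 FPKM and then 85.2, 171 and 133 FPKM. Gnas, which encodes the stimulatory G protein alpha subunit and is maternally expressed in some tissues, was at 254, 181 and 255 FPKM and then 179, 151 and 189 FPKM. Each was lower with tamoxifen in all 3 pairs while the groups overlapped. The log2 fold changes were -0.58, -0.47 and -0.40, with limma adjusted p = 0.0232, 0.0237 and 0.0401 with the block and 0.999 for Zdbf2, Peg10 and Gnas without it.

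Among the members that were not called, some lay just beyond the threshold with the block. Phlda2, a maternally expressed gene that limits placental growth, was at 93.6, 120 and 72.8 FPKM untreated and 52.3, 67.1 and 68.1 FPKM with tamoxifen. Its log2 fold change was -0.59, with limma adjusted p = 0.0507 and a 95% interval of -0.95 to -0.24. Impact, a paternally expressed regulator of translation, had a log2 fold change of -0.33 and adjusted p = 0.0583. For Sgce, the paternally expressed epsilon-sarcoglycan gene beside Peg10, the values were -0.45 and adjusted p = 0.0724. The remaining tested members of the Kcnq1 cluster gave intervals that included 0 except Cd81 (-0.52 to -0.05), a tetraspanin gene at 154, 257 and 154 FPKM untreated and 142, 189 and 125 FPKM with tamoxifen. Cdkn1c, the maternally expressed CDK inhibitor of the same cluster, was at 23.8 to 34.0 FPKM and had a log2 difference between -0.22 and 0.21 in the 95% interval with the block. Slc22a18 lay between 0.916 and 3.04 FPKM, Ascl2 between 2.25 and 3.10 FPKM, and Tssc4 between 12.4 and 21.8 FPKM.

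For several pairs of genes that share a locus the mean differences ran in opposite directions, though not always within each replicate number. None of these genes passed the test. Mest, a paternally expressed hydrolase-like gene, was at 97.2, 186 and 109 FPKM untreated and 69.0, 131 and 117 FPKM with tamoxifen. Its maternally expressed neighbour Copg2, a coatomer subunit gene, was at 34.0, 22.1 and 26.7 FPKM and then 36.8, 24.7 and 28.7 FPKM, slightly higher in each pair. Commd1, a copper metabolism gene whose intron holds the paternally expressed retrogene Zrsr1, was at 124, 61.6 and 87.8 FPKM and then 174, 79.0 and 94.7 FPKM. It was 20.6, 9.24 and 13.6 times the level of Zrsr1 in untreated replicates and 38.1, 13.2 and 16.7 times in tamoxifen replicates. Trappc9, a vesicle tethering gene, was at 10.4, 4.51 and 6.58 FPKM and then 12.0, 6.07 and 6.60 FPKM, and the non-coding Peg13 within it stayed between 0.453 and 1.53 FPKM. Peg3, a paternally expressed zinc finger gene, was at 34.0, 46.1 and 65.0 FPKM and then 11.3, 43.0 and 53.7 FPKM. Most of its difference lay in replicate number 1 (-1.58, against -0.10 and -0.27). Asb4 ranged from 0.326 to 0.877 FPKM, Usp29 from 0.288 to 0.562 FPKM and Zim1 from 0.0989 to 0.515 FPKM.

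More imprinted genes differed by replicate number than by treatment, and the same was so over all genes. In the limma F test of replicate number, 28 of 34 members differed, at a background of 62.8% of all genes. By treatment with the block it was 12 of 34 members, at a background of 10.4% of all genes. The F test compares 3 numbers at once and the treatment test 2 groups, so these counts are not matched. In 18 of them number 1 lay below the mean of numbers 2 and 3 (29.9% of all genes) and in 10 above it (33% of all genes). Among the 34 tested members, those lowest in number 1, with both groups averaged, were Dlk1 (difference of -1.73 in log2), Zdbf2 (-1.44), Peg3 (-1.38), Magel2 (-1.34), Igf2 (-1.17) and Peg13 (-1.06). Those highest in number 1 were Trappc9 (0.92), Commd1 (0.88) and H19 (0.55). Of the 13 fibroblast markers tested, 10 differed by number and all 10 were low in number 1, and 1 of the 13 (Twist1) differed by treatment with the block. None of the 14 was at 0 in all libraries. Whether feeder RNA contributed to the differences by number was not tested. Snrpn, Phlda2, Ascl2, Peg12, Asb4 and Zrsr1 did not pass the test of replicate number.

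**Figure D4:**
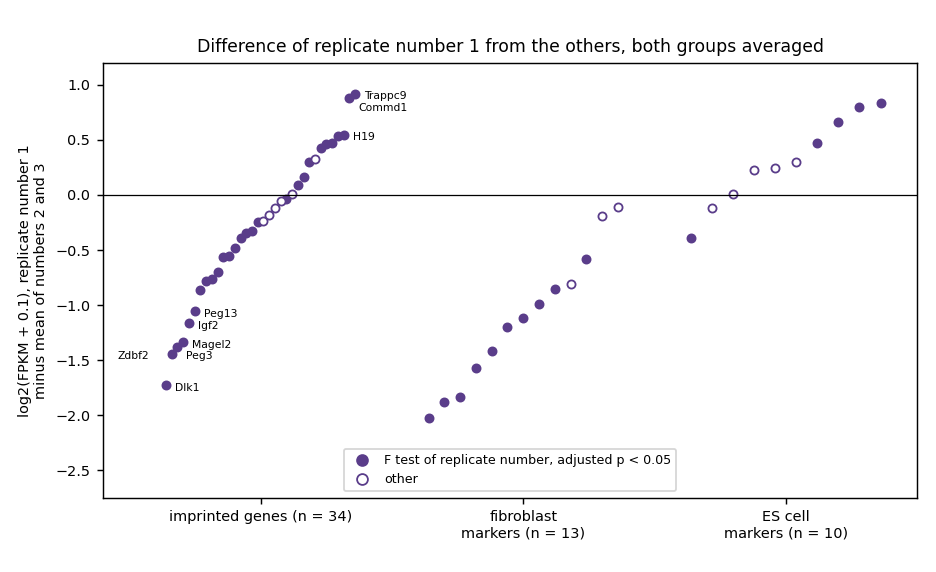
Difference in log2(FPKM + 0.1) of replicate number 1 from the mean of numbers 2 and 3, with untreated and tamoxifen averaged, for imprinted genes, fibroblast markers and ES cell markers, where filled points passed the F test of replicate number. All 10 filled fibroblast points lie below 0, and the imprinted genes run from -1.73 (Dlk1) to 0.92 (Trappc9).

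Other imprinted genes and genes of imprint maintenance were read beside the members. Of 38 further imprinted genes in the tables, 24 were tested, and with the block 3 fell and none rose, beside 6.06% of all genes lower and 4.33% higher: the amino acid transporter gene Slc38a4 (log2 fold change -0.50, limma adjusted p = 0.0242), Pon2 (-0.53, adjusted p = 0.0420) and Sfmbt2 (-0.43, adjusted p = 0.0439). The median of the 24 was -0.19. With the block and quantile normalization, Slc38a4 was still called (adjusted p = 0.0242), while Pon2 and Sfmbt2 were not (0.0831 and 0.0642). Among 20 tested genes of imprint maintenance the median was 0.04, with 2 higher and 1 lower in the fit with the block, which called 10.4% of all genes in either direction. Dppa3, which protects maternal methylation in the zygote, was at 45.9, 21.6 and 21.8 FPKM untreated and 132, 53.6 and 53.4 FPKM with tamoxifen, with a log2 fold change of 1.37 and limma adjusted p = 0.00180 with the block. Trim28, the corepressor recruited by KRAB zinc finger proteins, rose by 0.43 in log2 (adjusted p = 0.0477), and Tet1, which oxidises 5-methylcytosine, fell by 0.40 (adjusted p = 0.0393). With the block and quantile normalization Dppa3 was still called (adjusted p = 0.00302), and Trim28 and Tet1 were not (adjusted p = 0.165 and 0.0630). Zfp57, Dnmt1 and Uhrf1 did not pass. Among markers of other lineages, with the block 4 of 7 tested endoderm markers were lower, 3 of 6 trophoblast markers were lower and 1 was higher, and 3 of 4 neural markers were lower, against the same 6.06% and 4.33% of all genes. With quantile normalization as well, 3 endoderm, 2 trophoblast and 3 neural markers were lower and none was higher, against 4.51% of all genes lower and 4.29% higher. The endoderm list summed to 280 to 524 FPKM untreated and 292 to 401 FPKM with tamoxifen. The trophoblast list summed to 215 to 275 and 172 to 312 FPKM, and the neural list to 69.9 to 92.8 and 67.0 to 79.8 FPKM. The summed levels of the groups overlapped for each list. The sums were mostly Sparc, Krt8 with Krt18, and Tubb3, so they do not show the levels of the other markers. For Gata4, Gata6, Cdx2, Eomes, Sox1, Pax6 and Nes every tamoxifen library lay below every untreated library. Over all genes tested, 5.4% were lower and 3.09% higher without overlap. Dab2, Tfap2c and Tubb3 of the same lists were higher with tamoxifen in all 3 pairs. Elf5, too low to test, lay higher with tamoxifen without overlap. No marker of these lists was at 0 in every library, and their part in the differences of the imprinted genes was not tested.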

How the data were processed

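RNA was measured by RNA-seq in 6 libraries, 3 untreated and 3 tamoxifen, called biological triplicates in the study. The authors aligned reads with TopHat2 0.5 and computed FPKM (fragments scaled to transcript length and to mapped fragments) with Cufflinks 2.1.1 on mm9 refGene models, per the submitters' processing notes, and deposited 1 FPKM table per library. The 17 ChIP-seq and input samples were not analysed here. Tables held no read counts, so absolute depth is unknown. Steps of single fragments in 1187 low genes gave depths of 0.653 to 0.953 relative to untreated replicate 1, but only 8.26% to 11.0% of those values lay on such a step. FPKM sums ran from 549379 to 1045707.

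Rows were summed by gene name, and 6 names with failed rows were dropped. Genes with at least 0.5 FPKM in at least 3 of 6 libraries (12997) were tested in limma (version 3.58.1, R 4.3.3) after a log2(FPKM + 0.1) transformation, called at 0.05 after Benjamini-Hochberg adjustment. Fold changes are on that scale, which understates changes of low genes. The model was fitted without and with replicate number as a block. Same-numbered libraries correlated at 0.506 to 0.605 in their deviations from group means, which is why the numbers were read as pairs. Every member is reported, with values per library for members called in either fit, the highest in each cluster and the 6 with the widest range. The members and gene lists were chosen with earlier results of these data known. The fit was tested on simulated data that were built with replicate number effects estimated from these libraries. That test therefore cannot show whether the numbers are true pairs. Alternatives covered the pseudocount, filter, scaling, row handling, the block and leaving out libraries. Tables were handled with Python 3.11.15, pandas 2.3.3 and numpy 2.4.6.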

Additional observations from a re-analysis of the deposited data

How the results depend on the processing

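Without the replicate block no imprinted gene was called under any scaling, filter or pseudocount tried. A pseudocount of 1 left 0 genes lower, and a filter of 1 FPKM in all 6 samples left 0 higher and 0 lower. With the replicate block 1 imprinted gene was higher and 11 lower (563 and 787 of all genes). With the block and quantile normalization it was 1 and 10 (558 and 586), with the block and TPM scaling 1 and 2 (450 and 349), with TPM scaling after dropping every locus shorter than 300 bp 1 and 15 (418 and 1150), and with the same median log2 value per sample 1 and 7 (717 and 536). The last 3 were chosen after seeing the data. These scalings moved the median of all genes to 0.01, 0.08, -0.11 and 0.04 from -0.02. Grb10, Plagl1 and Snrpn were called under each. Quantile normalization lost Rian and Mirg and gained Impact, and equal medians lost Rian, Mirg, Igf2 and Gnas. The members' median was -0.2272 with TPM scaling, with or without the block. Cdkn1c reversed to 0.0968 with TPM scaling, again with or without the block, and to 0.056 with equal medians, and without the short loci Tssc4 and Ndn reversed to -0.018 and -0.0312. The cause was not tested.

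Leaving out 1 library without the block gave 0 imprinted genes in either direction and, of all genes, 0 to 5 higher and 0 to 7 lower. Leaving out 1 pair with the block gave 0 to 1 imprinted genes higher and 1 to 12 lower, and 45 to 785 and 66 to 1078 of all genes, with the fewest without number 2 (Grb10 alone among the members). Without number 1 Gnas was lost, and without number 3 Gnas, Igf2 and Peg10. Over both kinds, the members' median ran from -0.4889 to -0.1008, and 16 to 29 members and 4605 to 9176 genes differed between replicate numbers. With single libraries left out, the log2 fold change ran from -1.157 to -0.0053 for Dlk1, -1.0178 to -0.0569 for Zdbf2, -1.0312 to -0.2534 for Igf2 and -0.7137 to -0.1931 for Peg10, each nearest to 0 without tamoxifen replicate 1 and farthest without untreated replicate 1. With pairs left out these ran from -0.7419 to -0.5313, -0.6671 to -0.4934, -0.7138 to -0.4627 and -0.5349 to -0.4327. Log2 fold changes that reversed ran from -0.397 to 0.2432 for H19, -0.1382 to 0.1184 for Cdkn1c, -0.6582 to 0.0499 for Slc22a18, -0.1602 to 0.2205 for Tssc4, -0.6232 to 0.0198 for Igf2r, -1.0767 to 0.0407 for Peg3, -0.026 to 0.2894 for Copg2, -0.136 to 0.1635 for Ndn, -0.6065 to 0.2947 for Magel2, -0.0171 to 0.5689 for Commd1, -0.6506 to 0.0537 for Peg13 and -0.0954 to 0.5167 for Trappc9. With 3 libraries per group the median SE over all genes was 0.293 without and 0.123 with the block. A difference of the members' median size was not detectable for most genes without the block. With it such a difference could also be missed: Impact and Igf2r, each at -0.33, were not called (limma adjusted p = 0.0583 and 0.105).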
